A study of Mus musculus with 4 samples.

Results

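Toll-like receptors and their adaptor MyD88 were examined in mBMSCs depleted of ZBP1. The members were 10 genes, Tlr1 to Tlr9 and Myd88, taken by exact match of the gene symbol from a table of 24346 gene entries, and all 10 were found. mBMSCs are bone marrow-derived mesenchymal stem/progenitor cells, here from mice aged 3 months of the strain C57BL/6 (C57BL/6J in the methods). They were transfected with Lipofectamine RNAiMAX and either a scrambled siRNA (siScr, n = 2) or siRNA targeting ZBP1 (siZBP1, n = 2), so that the control cells had also received lipid and a double-stranded RNA, and no untransfected cells were sampled. RNA was collected 72 h after transfection and sequenced in bulk. The comparison of siZBP1 with siScr asks which transcripts depend on ZBP1 in these cells. The sources do not say which siRNA against ZBP1 was used or whether the samples of a group came from separate cultures or animals, so p-values measure only the spread between these samples, which may be technical. All levels are FPKM, which counts sequenced fragments relative to transcript length and to the total mapped in a sample.

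Toll-like receptors are membrane proteins of innate immunity that recognise microbial lipids, proteins and nucleic acids. Tlr1, Tlr2, Tlr4, Tlr5 and Tlr6 encode receptors of the cell surface, and Tlr3, Tlr7, Tlr8 and Tlr9 encode receptors that meet nucleic acids in endosomes. MyD88 couples most of them, and the IL-1 receptor, to IRAK kinases, TRAF6 and NF-κB, whereas TLR3 signals through TRIF. Macrophages express many of these receptors, and mesenchymal stromal cells also respond to some of their ligands. ZBP1 itself is a sensor of Z-form nucleic acid that is induced by interferon.

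Zbp1 measured 86.0 and 62.0 FPKM in siScr cells and 11.5 and 11.6 FPKM in siZBP1 cells. The groups lay apart, and the mean was 6.4-fold lower in siZBP1 cells (log2 fold change −2.56, SE 0.16, limma adjusted p = 0.00322, n = 2 per group). Numbers of reads were not given, and the spacing of low values gave rough depths of 11 to 20 M fragments per sample. The label was only partly matched by marker genes. Mesenchymal markers were present, and 11 of 12 had a mean of at least 1 FPKM. Their means over all samples ran from 0.78 FPKM for Lepr, 2.34 for Pdgfra and 2.57 for Thy1 up to 1396 for Vim and 1977 for Col1a1. All 20 macrophage markers were present too, with means over all samples from 22.1 FPKM for Mertk to 4433 FPKM for Lyz2. Their summed level was 9993 and 10980 FPKM in siScr cells and 15740 and 15010 FPKM in siZBP1 cells, and 13 of 20 were called higher and 1 (Cybb) lower. Lyz2 gave the largest part of the rise in this sum, with means of 3230 FPKM in siScr and 5636 FPKM in siZBP1 cells. Of the mesenchymal markers, 1 (Nt5e) was called higher and 5 lower, and their summed level was 4985 and 4285 FPKM in siScr cells and 2854 and 2914 FPKM in siZBP1 cells. Col1a1 and Vim made up most of this sum. Col1a1 gave most of its fall, with means of 2793 FPKM in siScr and 1160 FPKM in siZBP1 cells, while Vim averaged 1385 and 1407 FPKM. All 5 B cell markers and all 5 neutrophil markers found were under 1 FPKM in every sample. The defining B cell and neutrophil markers thus lay near 0. Of the dendritic, T cell and endothelial markers, Itgax averaged 5.58, Cd4 4.57 and Kdr 2.74 FPKM, and the rest had means under 1 FPKM. Itgax and Cd4 were called higher in siZBP1 cells and Kdr was not called. In bulk RNA more cells of a type and more RNA per cell cannot be told apart, and the part of the macrophage genes in the values below was not tested. Values given relative to these markers subtract their mean log2 change of 0.39 from every gene, whichever cells make it.

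The genes of 2 receptor pairs are neighbours in the mouse genome. On GRCm38 with GENCODE M21, Tlr1 (chr5:64924679-64933563) and Tlr6 (chr5:64952031-64960097) lie 18.5 kb apart on the minus strand. Tlr8 (chrX:167242696-167264329) and Tlr7 (chrX:167304929-167330558) lie 40.6 kb apart, also on the minus strand, and no other coding gene lies within either gap. Tlr2 lies at chr3:83836272-83841767, Tlr3 at chr8:45395665-45411080 and Myd88 at chr9:119335934-119341411, all on the minus strand. Tlr4 lies at chr4:66827584-66930284, Tlr5 at chr1:182954788-182976044 and Tlr9 at chr9:106222598-106226883, all on the plus strand. Of the 50-base words in Tlr1 transcripts, 13.6% also occur in Tlr6, and 12.3% of those of Tlr6 occur in Tlr1, so that the split of reads between this pair is uncertain. A share of 11.3% of the exonic bases of Myd88 overlaps Acaa1a on the opposite strand, and 7.32% of those of Tlr3 overlaps Gm45542. Whether strand was used in counting is not given in the sources used here.

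Promoter sequence is shown for 3 genes that were called higher (Tlr2, Tlr1 and Tlr8) and for 2 that were not called (Myd88 and Tlr6), to show how far these promoters share known motif letters. RefSeq windows on GRCm38.p6 were matched for 8 of the 10 members in 10 windows, and Tlr4 and Tlr7 had none. The bases are those within 250 bases before the RefSeq start that lie outside annotated exons, read 5′ to 3′ on the minus strand, which carries all 5 genes. Capitals mark matches on either strand to an ISRE-like motif (GAAANNGAAA), an NF-κB-like motif (GGGNNNNNCC), a PU.1-like motif (GAGGAA), an AP-1-like motif (TGANTCA) or a TATA box (TATAAA). The Tlr2 stretch is chr3:83841768-83841858, that of Tlr1 chr5:64933564-64933808, that of Tlr8 chrX:167264330-167264579, that of Myd88 chr9:119340042-119340268 and that of Tlr6 chr5:64960098-64960298.
Tlr2: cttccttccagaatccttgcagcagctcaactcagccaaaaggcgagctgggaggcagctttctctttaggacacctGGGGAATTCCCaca
Tlr1: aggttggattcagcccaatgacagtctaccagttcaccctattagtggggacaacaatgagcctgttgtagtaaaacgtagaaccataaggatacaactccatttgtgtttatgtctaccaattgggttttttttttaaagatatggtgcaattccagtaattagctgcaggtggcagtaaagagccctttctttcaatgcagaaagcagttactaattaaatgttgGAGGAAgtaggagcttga
Tlr8: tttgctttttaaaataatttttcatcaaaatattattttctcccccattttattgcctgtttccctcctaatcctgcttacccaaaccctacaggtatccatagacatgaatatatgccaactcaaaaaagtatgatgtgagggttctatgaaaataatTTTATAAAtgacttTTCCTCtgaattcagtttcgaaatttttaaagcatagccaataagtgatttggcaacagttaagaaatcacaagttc
Myd88: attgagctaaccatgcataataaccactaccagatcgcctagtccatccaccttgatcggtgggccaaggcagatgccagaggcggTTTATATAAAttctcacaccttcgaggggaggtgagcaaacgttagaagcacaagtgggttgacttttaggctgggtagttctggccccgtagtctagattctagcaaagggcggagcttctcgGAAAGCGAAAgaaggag
Tlr6: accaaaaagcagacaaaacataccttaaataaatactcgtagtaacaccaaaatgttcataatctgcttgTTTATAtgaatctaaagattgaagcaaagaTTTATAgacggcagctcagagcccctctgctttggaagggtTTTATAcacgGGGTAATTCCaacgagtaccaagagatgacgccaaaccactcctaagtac
Tlr2 held overlapping NF-κB-like matches whose first bases lie 173 and 172 bases before the start. The printed window of Tlr1 held a PU.1-like match and no TATA box, and Tlr8 held a PU.1-like match beside overlapping TATA boxes. Myd88 held an ISRE-like match 40 bases before the start. Tlr1 and Tlr6 have 2 RefSeq windows each, of which 1 is printed. The printed window of Tlr6 held an NF-κB-like match and 3 TATA boxes, and its other window held overlapping ISRE-like matches 116 and 110 bases before the start. Over all member windows, an ISRE-like match occurred in 2 of 10 (3.0% of 32851 windows in the table), an NF-κB-like match in 4 of 10 (45.8%), a PU.1-like match in 3 of 10 (23.3%), an AP-1-like match in 1 of 10 (6.7%) and a TATA box in 3 of 10 (12.4%). No motif was shared by all members. A match is a description of these letters and not a bound site.

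In siScr cells the endosomal receptors for single-stranded RNA were the most abundant members. Tlr7 averaged 92.4 FPKM and Tlr8 64.3 FPKM, followed by Tlr4 at 36.6 FPKM and Myd88 at 35.2 FPKM, whose samples overlapped. Tlr2 came next at 25.8 FPKM, then Tlr9 at 16.9, Tlr3 at 13.4, Tlr1 at 9.36 and Tlr6 at 4.24 FPKM. Tlr5, the flagellin receptor, was last at 0.772 FPKM. All other neighbours in this order had samples that did not overlap. In siZBP1 cells the order was the same except that Tlr2, at 46.3 FPKM, stood above Tlr4, at 41.7 FPKM, and Myd88, at 40.9 FPKM, and no neighbours overlapped. The plot of levels by sample shows both orders.

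**Figure D1:**
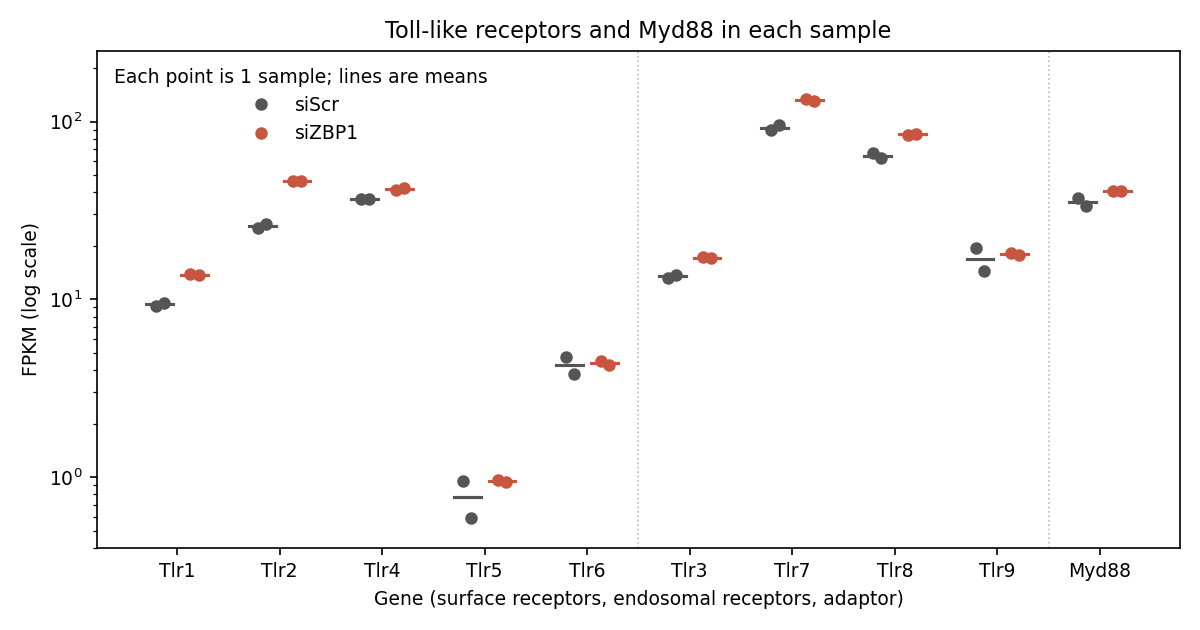
FPKM on a log axis for each member in the 2 siScr samples (grey) and the 2 siZBP1 samples (red), with surface receptors on the left, endosomal receptors in the middle and Myd88 on the right; points are samples and short lines are group means. For Tlr1, Tlr2, Tlr3, Tlr4, Tlr7, Tlr8 and Myd88 both siZBP1 samples lie above both siScr samples, while the groups overlap for Tlr5, Tlr6 and Tlr9.

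Of the 9 members with a mean of at least 1 FPKM, 6 were called higher in siZBP1 cells and 0 lower by limma on log2(FPKM + 1), although relative to the macrophage markers Tlr3, Tlr4, Tlr6, Tlr9 and Myd88 turned lower in sign. Over all 11959 genes tested, 13.5% were called higher and 14.8% lower. At an unadjusted p under 0.05, 7 members were higher and 0 lower, against 20.7% and 21.3% of all genes tested. The median log2 fold change of the 9 members was 0.33, against 0.00 (0.004461) over all genes tested. In 7 of the 9, both siZBP1 samples exceeded both siScr samples, as they did in 34.7% of all genes tested. By the ratio of means, 1 of 10 members (Tlr2) was over 1.5-fold higher and 0 were over 1.5-fold lower, against 10.7% and 13.8% of 16281 genes. With 2 samples against 2, an exact two-sided permutation test of 1 gene cannot give a p below 0.333, so the calls rest on the variance that limma shares between genes. Without siScr replicate 1, the members called higher by limma included Myd88 but no longer Tlr3 or Tlr4. Without siScr replicate 2, only Tlr4 lost its call. Without siZBP1 replicate 1 and without siZBP1 replicate 2, 0 were called, with 6 and 5 higher at an unadjusted p under 0.05, beside 12.4% and 14.5% of all genes. Over all genes, 22 and 32 were then called higher.

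Among the surface receptors, Tlr2, which pairs with TLR1 or TLR6 to recognise bacterial lipopeptides, had the largest fold change of all members tested. It measured 25.2 and 26.4 FPKM in siScr cells and 46.4 and 46.2 FPKM in siZBP1 cells. The 4 values formed 2 tight, separate pairs, with a mean 1.80 times as high in siZBP1 cells. Its log2 fold change was 0.82 (SE 0.05, limma adjusted p = 0.00277, n = 2 per group). Leaving out any 1 sample gave a log2 fold change of 0.79 to 0.85, but as for every member the call was lost without either siZBP1 replicate. The promoter with the overlapping NF-κB-like matches above belongs to this gene. That motif occurred in 45.8% of all windows, and also in a window of Tlr6, which was not called. A link between the motif and the level was not tested.

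Tlr1 encodes the partner of TLR2 for triacylated lipopeptides. Its levels were 9.22 and 9.49 FPKM in siScr cells and 13.9 and 13.6 FPKM in siZBP1 cells. Both siZBP1 samples were above both siScr samples, and the log2 fold change was 0.51 (SE 0.06, limma adjusted p = 0.00816, n = 2 per group). Tlr6 encodes the partner for diacylated lipopeptides, and its levels were 4.71 and 3.78 FPKM in siScr cells and 4.49 and 4.26 FPKM in siZBP1 cells. Here the groups overlapped, and the log2 fold change of 0.04 (95% interval −0.27 to 0.35, limma adjusted p = 0.826, n = 2 per group) left room for a change in either direction. The neighbouring genes of this pair thus gave different values, with shared sequence between them as a limit.

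Tlr4, the receptor for lipopolysaccharide together with MD-2 (Ly96) and CD14, measured 36.6 and 36.7 FPKM in siScr cells and 41.3 and 42.1 FPKM in siZBP1 cells. The siZBP1 samples were higher by a small margin, a ratio of 1.14 with a log2 fold change of 0.18 (SE 0.04, limma adjusted p = 0.0356, n = 2 per group). This call was lost when any 1 sample was left out, with adjusted p from 0.0759 to 0.185, and also in the fit without a variance trend (limma adjusted p = 0.0774). Ly96 measured 24.6 and 23.4 FPKM in siScr cells and 37.3 and 33.5 FPKM in siZBP1 cells. It rose more than its receptor, with a log2 fold change of 0.54 (SE 0.07, limma adjusted p = 0.0101, n = 2 per group), and Tlr4 over Ly96 went from 1.49 and 1.56 to 1.11 and 1.26. Cd14 measured 166.1 and 186.4 FPKM in siScr cells and 206.0 and 190.4 FPKM in siZBP1 cells, and was not called (log2 fold change 0.17, limma adjusted p = 0.162, n = 2 per group). Tlr5 was too low for the test, at 0.953 and 0.590 FPKM in siScr cells and 0.968 and 0.935 FPKM in siZBP1 cells. The groups overlapped, the values correspond to an estimated 41 to 65 fragments per sample, and without a filter its log2 fold change was 0.15 (95% interval −0.19 to 0.49, limma adjusted p = 0.4998, n = 2 per group).

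Among the endosomal receptors, Tlr7 and Tlr8, which sense single-stranded RNA and its breakdown products, were both called higher. Tlr7 measured 89.1 and 95.8 FPKM in siScr cells and 134.0 and 130.8 FPKM in siZBP1 cells. Its groups lay far apart, with a ratio of 1.43 and a log2 fold change of 0.51 (SE 0.05, limma adjusted p = 0.0061, n = 2 per group). Tlr8 measured 66.4 and 62.2 FPKM in siScr cells and 83.5 and 85.5 FPKM in siZBP1 cells. Both siZBP1 samples were higher again, with a ratio of 1.31 (log2 fold change 0.39, SE 0.05, limma adjusted p = 0.00972, n = 2 per group). Of these neighbours on the X chromosome, Tlr7 stood at 1.34 and 1.54 times the level of Tlr8 in siScr cells and at 1.60 and 1.53 times in siZBP1 cells, so that their ratio overlapped between groups.

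Tlr3, the receptor for double-stranded RNA, which signals without MyD88, measured 13.2 and 13.7 FPKM in siScr cells and 17.3 and 17.1 FPKM in siZBP1 cells. The groups did not overlap, and the log2 fold change was 0.33 (SE 0.05, limma adjusted p = 0.0162, n = 2 per group). With any 1 sample left out the log2 fold change of Tlr3 was 0.31 to 0.35, and its call held only without siScr replicate 2. Tlr9, the receptor for unmethylated CpG DNA, measured 19.4 and 14.4 FPKM in siScr cells and 18.2 and 17.7 FPKM in siZBP1 cells. Here the siScr replicates enclosed both siZBP1 samples, and the log2 fold change was 0.09 (95% interval −0.28 to 0.47, limma adjusted p = 0.664, n = 2 per group). Of the mouse receptors outside the numbering above, Tlr13, an endosomal sensor of bacterial ribosomal RNA, measured 117.0 and 108.6 FPKM in siScr cells and 103.0 and 108.7 FPKM in siZBP1 cells. It stood above Tlr7 in both siScr samples and below Tlr7 in both siZBP1 samples, and was not called (log2 fold change −0.09, 95% interval −0.24 to 0.06, limma adjusted p = 0.292, n = 2 per group). Tlr7 over Tlr13 went from 0.762 and 0.882 in siScr cells to 1.30 and 1.20 in siZBP1 cells, with no overlap. Tlr11 and Tlr12, which recognise the protozoan protein profilin in mice, stayed under 0.1 FPKM.

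Myd88 measured 36.9 and 33.4 FPKM in siScr cells and 40.9 and 40.9 FPKM in siZBP1 cells. Both siZBP1 samples were above both siScr samples, which differed from each other by most of the distance between the groups. The log2 fold change was 0.21 (95% interval 0.05 to 0.37, limma adjusted p = 0.0635, n = 2 per group), which missed the threshold of 0.05. Over 10 settings with all samples, the main one included, the adjusted p of Myd88 ranged from 0.0443 to 0.106 and passed in 3. The ISRE-like match shown above lies in its promoter, and a link between that match and the level was not tested.

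The summed level of Tlr1 to Tlr9 was 264.8 and 262.9 FPKM in siScr cells and 360.0 and 358.2 FPKM in siZBP1 cells. Endosomal receptors made up 71.0% and 70.75% of the sum in siScr cells and 70.3% and 70.1% in siZBP1 cells, a shift of under 1 percentage point among these 9 genes. With Tlr13 added to the endosomal group and the sum, the share was 79.9% and 79.3% in siScr cells and 76.9% and 77.0% in siZBP1 cells. Within the surface group the makeup shifted. Tlr2 supplied 9.51% and 10.04% of the sum in siScr cells and 12.9% and 12.9% in siZBP1 cells, while Tlr4 supplied 13.8% and 13.9% and then 11.5% and 11.8%. Tlr2 over Tlr4 accordingly went from 0.688 and 0.720 to 1.12 and 1.10. Tlr2 over Tlr6 went from 5.35 and 6.99 to 10.3 and 10.8, and Tlr2 over Tlr1 from 2.73 and 2.78 to 3.34 and 3.39. These ratios do not depend on the scaling of a sample, and their groups did not overlap.

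**Figure D2:**
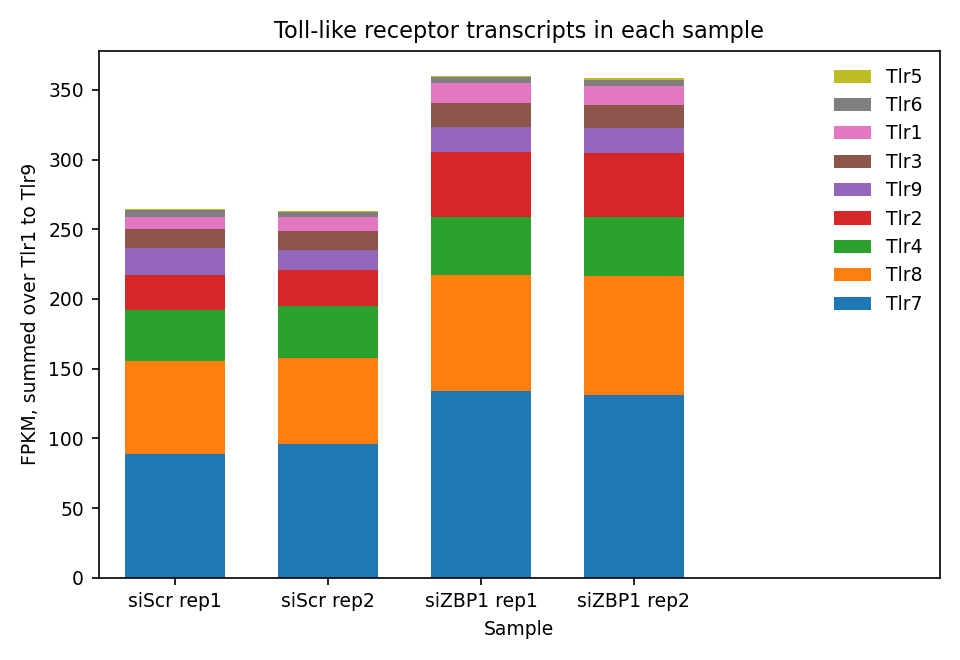
Stacked FPKM of Tlr1 to Tlr9 in each of the 4 samples, 1 bar per sample and 1 colour per receptor, with the axis starting at 0. Both siZBP1 bars, at 360.0 and 358.2 FPKM, stand above both siScr bars, at 264.8 and 262.9 FPKM, and Tlr7 and Tlr8 form the base of every bar.

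The macrophage markers moved in the same direction as the receptors. Their mean log2(FPKM + 1) was 7.86 and 7.91 in siScr cells and 8.28 and 8.27 in siZBP1 cells, a difference of 0.39, and the median log2 fold change of the 20 markers was 0.33, close to that of the 9 members. When each sample was expressed relative to this marker mean, which by construction moved the median of all genes to −0.38, the members fell on both sides of 0. Tlr2 was the 1 member called higher in that fit (log2 fold change 0.43, SE 0.05, limma adjusted p = 0.00234, n = 2 per group). Tlr4 was the 1 member called lower (log2 fold change −0.20, SE 0.05, limma adjusted p = 0.0197, n = 2 per group). Tlr1 and Tlr7 stood at 0.12 and 0.13, Tlr8 at 0.00 (0.002932) and Tlr3 at −0.06 on this scale, none of which passed. Myd88 stood at −0.17, Tlr9 at −0.29 and Tlr6 at −0.35, also without a call. Over all genes 204 were called higher and 7949 lower in this fit. As deposited, individual macrophage markers differed more widely than the members did, from −0.24 for Cybb to 1.25 for Mrc1 against 0.04 to 0.82. Relative to their own mean the markers ran from −0.63 for Cybb to 0.87 for Mrc1. Tlr2 and Tlr4 lay within that range, and the SE of this fit does not include the spread between markers.

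**Figure D3:**
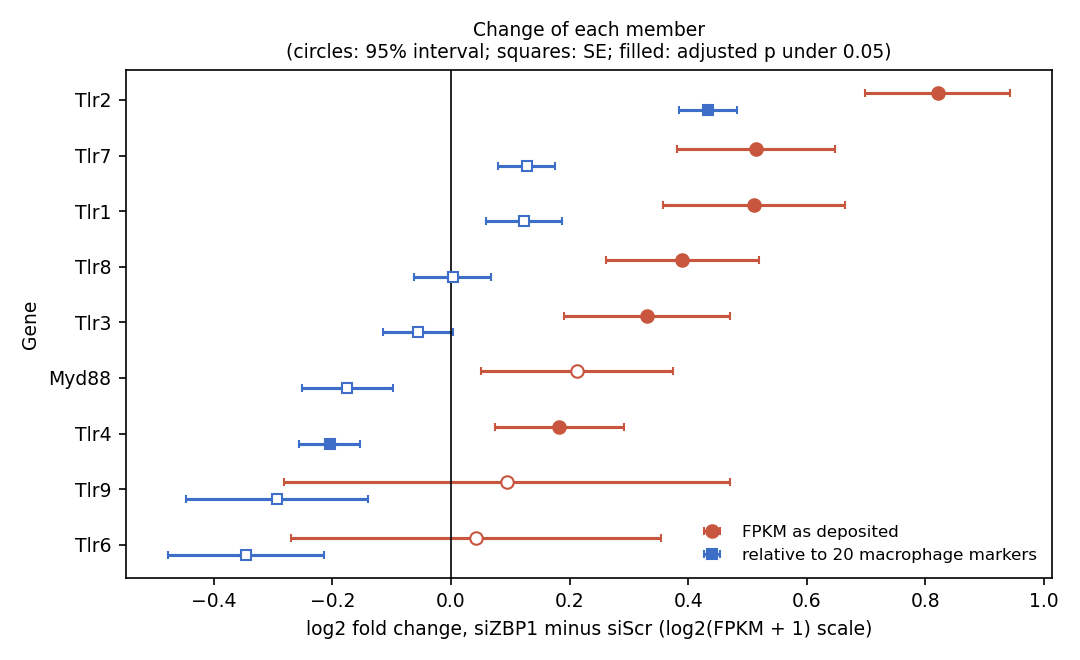
Log2 fold change of siZBP1 against siScr for the 9 members tested, on FPKM as deposited (red circles, bars are 95% intervals) and relative to the mean of 20 macrophage markers (blue squares, bars are SE), with filled symbols for an adjusted p under 0.05. As deposited, Tlr2 is highest at 0.82 and all 9 lie above 0; relative to the markers Tlr2 stays above 0 at 0.43 while Tlr3, Tlr4, Tlr6, Tlr9 and Myd88 lie below 0.

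The rest of the pathway was described from 10 lists with 103 genes, of which 87 were tested. By limma 29 were called higher and 11 lower, beside 13.5% and 14.8% of all genes tested, so that the count of lower genes lay near the background share. The median log2 fold change was 0.17. At an unadjusted p under 0.05 the counts were 42 and 14, beside 20.7% and 21.3% of all genes. Of 5 co-receptors tested 3 were called higher and 1 lower, of 9 chaperones and proteases of endosomal receptors 6 higher and 0 lower, and of 4 other adaptors 2 higher and 0 lower. Of 20 kinases and ubiquitin ligases 7 were called higher and 3 lower, of 12 transcription factors 3 higher and 2 lower, and of 9 negative regulators 2 higher and 0 lower. Of 15 induced genes 4 were called higher and 2 lower, of 7 endogenous ligands 1 higher and 3 lower, and of 5 IL-1 receptor family genes 1 higher and 0 lower. Relative to the macrophage markers, the log2 fold change of Tirap (−0.04), Irak1 (−0.08), Irak4 (−0.11) and Nfkbia (−0.07), all called higher as deposited, turned negative without a call. On that scale Ly96 stood at 0.15, Ctsl at 0.06, Ticam2 at 0.24, Map3k8 at 0.26, Relb at 0.07, Fn1 at 0.15 and Il18rap at 0.38, none of which passed, and Il1b passed at 1.11 (limma adjusted p = 0.0167).

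**Figure D4:**
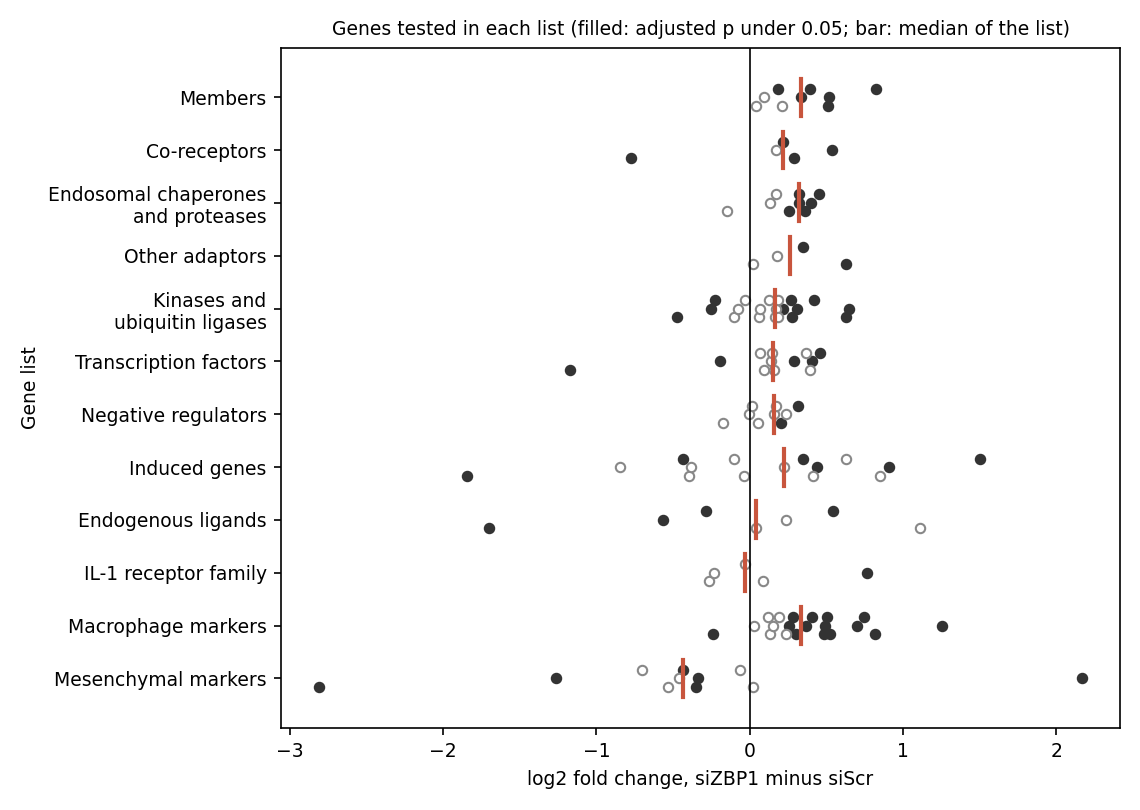
Log2 fold change of siZBP1 against siScr for every tested gene of the members, of 9 pathway lists and of the macrophage and mesenchymal markers, 1 point per gene; filled points have an adjusted p under 0.05 and red bars are list medians. The medians of the members and of the macrophage markers both lie at 0.33, and that of the endosomal chaperones and proteases lies close by at 0.32. That of all other lists lies lower, and that of the mesenchymal markers lies at −0.44.

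Close to the receptors, Cd36, a scavenger receptor that assists TLR2 with TLR6, fell, in contrast to Tlr2. It measured 80.1 and 71.9 FPKM in siScr cells and 40.3 and 48.1 FPKM in siZBP1 cells, and the groups lay apart. The log2 fold change was −0.77 (SE 0.10, limma adjusted p = 0.011, n = 2 per group). Among the genes that bring endosomal receptors to maturity, Ctsl, a cathepsin, rose from 416.5 ± 12.9 to 569.8 ± 7.81 FPKM (SD, n = 2 each, log2 fold change 0.45, limma adjusted p = 0.00603). Unc93b1, the chaperone that carries TLR3, TLR7, TLR8 and TLR9 to the endosome, measured 174.2 ± 5.01 and 196.3 ± 7.97 FPKM (SD, n = 2 each) and was not called (log2 fold change 0.17, limma adjusted p = 0.0614).

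Of the other adaptors, Ticam2, which encodes TRAM and brings TRIF to TLR4, measured 4.51 and 5.34 FPKM in siScr cells and 8.496 and 7.77 FPKM in siZBP1 cells. The groups were separate and its log2 fold change of 0.63 (SE 0.10, limma adjusted p = 0.0174, n = 2 per group) was the largest among the adaptors. Tirap, which brings MyD88 to TLR2 and TLR4, rose from 6.09 ± 0.342 to 8.03 ± 0.0839 FPKM (SD, n = 2 each, log2 fold change 0.35, limma adjusted p = 0.0314). The call of Tirap was lost when any 1 sample was left out, and also without a filter (limma adjusted p = 0.0586). Ticam1, which encodes TRIF, the adaptor of TLR3, measured 11.9 and 11.2 FPKM in siScr cells and 11.4 and 12.0 FPKM in siZBP1 cells. Its groups overlapped (log2 fold change 0.02, 95% interval −0.15 to 0.19, limma adjusted p = 0.844, n = 2 per group).

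Of the IRAK kinases to which MyD88 couples the receptors, Irak1 and Irak4 were called higher and Irak2 was not (log2 fold change 0.17, limma adjusted p = 0.102). Irak1 rose from 25.3 ± 0.472 to 31.5 ± 1.47 FPKM (SD, n = 2 each, log2 fold change 0.31, limma adjusted p = 0.0201) and Irak4 from 14.8 ± 0.196 to 18.1 ± 1.06 FPKM (SD, n = 2 each, log2 fold change 0.28, limma adjusted p = 0.0363). Both calls were lost when any 1 sample was left out. That of Irak4 was also lost without a filter (limma adjusted p = 0.051) and without a variance trend (limma adjusted p = 0.0546). Traf6, the ubiquitin ligase that follows them, measured 8.17 ± 0.444 and 8.56 ± 0.0148 FPKM (SD, n = 2 each) and was not called (log2 fold change 0.06, 95% interval −0.12 to 0.25, limma adjusted p = 0.559). Map3k8, a kinase that activates ERK downstream of the receptors, had the largest rise in its list, from 4.08 ± 0.438 to 6.94 ± 0.0578 FPKM (SD, n = 2 each, log2 fold change 0.65, limma adjusted p = 0.013). Ikbkg, which encodes the regulatory subunit NEMO of the IκB kinase complex, had the largest fall, from 14.4 ± 0.860 to 10.03 ± 0.303 FPKM (SD, n = 2 each, log2 fold change −0.48, limma adjusted p = 0.0129).

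At the level of transcription factors, Irf7, which carries the interferon response to TLR7 and TLR9 ligands, fell most. It measured 178.5 and 130.1 FPKM in siScr cells and 65.0 and 69.1 FPKM in siZBP1 cells. Both siZBP1 samples were below both siScr samples, which themselves differed widely, and the log2 fold change was −1.17 (SE 0.16, limma adjusted p = 0.0107, n = 2 per group). Relb, an NF-κB subunit, rose from 6.82 ± 0.238 to 9.76 ± 0.726 FPKM (SD, n = 2 each, log2 fold change 0.46, limma adjusted p = 0.0196). The call of Relb was lost when any 1 sample was left out. Nfkbia, which encodes the inhibitor IκBα and is itself induced by NF-κB, rose from 26.0 ± 0.147 to 32.6 ± 0.453 FPKM (SD, n = 2 each, log2 fold change 0.32, limma adjusted p = 0.0114).

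The IL-1 system, whose receptor also signals through MyD88, held the called induced genes with the largest rise and the largest fall on the log2(FPKM + 1) scale. Il1b, the cytokine, measured 0.714 and 1.02 FPKM in siScr cells and 3.10 and 5.76 FPKM in siZBP1 cells. The siZBP1 samples were higher and differed from each other, and the log2 fold change was 1.501 on that scale, which understates changes of low genes (SE 0.27, limma adjusted p = 0.021, n = 2 per group). The call of Il1b was lost when any 1 sample was left out. Il1rn, which encodes the antagonist of the IL-1 receptor, measured 42.9 and 28.9 FPKM in siScr cells and 9.70 and 8.51 FPKM in siZBP1 cells. It fell with no overlap between the groups (log2 fold change −1.85, SE 0.20, limma adjusted p = 0.00711, n = 2 per group). Il18rap, the accessory chain of the IL-18 receptor, was low at 0.813 and 0.979 FPKM in siScr cells and 2.12 and 2.31 FPKM in siZBP1 cells, and rose (log2 fold change 0.76, limma adjusted p = 0.0168, n = 2 per group).

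Among matrix molecules that can act as endogenous ligands of TLR2 or TLR4, Dcn, the proteoglycan decorin, measured 19.3 and 13.8 FPKM in siScr cells and 4.89 and 3.84 FPKM in siZBP1 cells. It fell by 1.70 on the log2 scale (SE 0.19, limma adjusted p = 0.00774, n = 2 per group). Fn1, which encodes fibronectin, rose from 1734 ± 30.2 to 2521 ± 26.1 FPKM (SD, n = 2 each, log2 fold change 0.54, limma adjusted p = 0.0053). S100a9, a further ligand of TLR4, was listed at 0 in all 4 samples. Dcn is made by mesenchymal cells, whose markers were lower in siZBP1 cells as given above, and the part of those cells in its fall was not tested.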

How the data were processed

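RNA-seq of 4 mBMSC samples was used, 2 of siScr cells and 2 of siZBP1 cells. Per the methods, the authors made TruSeq libraries, mapped reads to mm10 with TopHat and extracted FPKM with HTSeq; the submitters' processing notes name TopHat and Cufflinks. The deposited values are FPKM per gene and sample. The annotation, the strand setting and read numbers are not given in the sources used here, and 0 columns of sample values were left unmapped. Group means in the same table were not used for tests.

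Groups came from the sample titles. Values were put on a log2 scale with a pseudocount of 1 and fitted with limma 3.58.1 in R 4.3.3, with its variance trend and no covariate, two-sided. Genes entered when their FPKM averaged 1 or more. P-values were adjusted by Benjamini and Hochberg over all 11959 genes tested, at 0.05. The fit was tested on simulated data. Ratios of group means were called over 1.5-fold, as in the study's criterion. A second fit subtracted each sample's mean log2 level of 20 macrophage markers. Depth was estimated from the spacing of low values of 5414 genes with 1 transcript, and fragments per gene from this depth; no counting interval was computed. Gene models came from GENCODE M21 on GRCm38 and promoters from RefSeq on GRCm38.p6. Python 3.11.15 with pandas 2.3.3, numpy 2.4.6 and matplotlib 3.10.9 was used.

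The members and lists were chosen with earlier results of these data known. Named genes were the members, Zbp1, Tlr11 to Tlr13, fixed partners (Cd14, Ly96, Unc93b1, Tirap, Ticam1, Ticam2, Irak1, Irak4 and Traf6) and the largest called rise and fall in each list; Irak2, S100a9, Acaa1a, Gm45542 and the markers were named after their values were seen. Deviations of same-numbered samples from their group means correlated at −0.06 over genes, so the numbers were not taken to pair the samples. The alternatives were 13 other settings, among them other pseudocounts, filters, scalings, a replicate block and leaving out each sample.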

Additional observations from a re-analysis of the deposited data

How the results depend on the processing

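With 1 sample left out at a time, the lone sample of an arm was assumed to vary like the other group. Over these fits the genes called higher ranged from 22 to 1248 and those called lower from 48 to 1467, the members called higher from 0 to 5, the pathway genes called higher from 0 to 21 and lower from 0 to 13. The lowest of these counts came without a siZBP1 replicate. The log2 fold change then ranged from −0.0873 to 0.17 for Tlr6, from −0.11 to 0.30 for Tlr9 and from −0.0218 to 0.0634 for Ticam1, none of which was called with all samples. Members over 1.5-fold higher numbered 1 to 2, with Tlr5 as the added one, and 2 when each sample was scaled to the same median FPKM, with Tlr1 as the added one. Relative to the macrophage markers, the log2 fold change turned negative for Tlr3 (−0.0561), Tlr4 (−0.20), Tlr6 (−0.35), Tlr9 (−0.29) and Myd88 (−0.17). That fit takes the same 0.39 off every gene, so any smaller rise turns negative. The part of the macrophage genes in these values was not tested.

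Under the replicate block, 1465 genes were called higher and 1654 lower, and 5 members were higher, with Tlr4 lost (adjusted p = 0.0626, limma). Over the 10 settings with all samples on the deposited scale, Tlr1, Tlr2, Tlr3, Tlr7 and Tlr8 passed in 10, Tlr4 in 8, Myd88 in 3 and Tlr9 in 0. The fit relative to the macrophage markers is left aside first. For the 24 named genes called with all samples, 209 of 214 values under the other alternatives that kept all samples held their direction and call. Settings that change only the filter, the variance model or the replicate block leave the log2 fold change itself unchanged. With a sample left out, most values lost their call and 0 reversed. The groups of these genes did not overlap, so leaving out a sample could not reverse a sign. In the fit relative to the markers, 8 of the 24 kept their call and 10 kept only their sign. Another 6 (Irak1, Irak4, Nfkbia, Tirap, Tlr3 and Tlr4) turned negative, of which Tlr4 was called lower. The rises that kept their call were those of Tlr2 and Il1b. The others that kept it (Zbp1, Cd36, Ikbkg, Irf7, Il1rn and Dcn) were falls, which the subtraction can only enlarge. Tlr5 could be fitted only without a filter. Among the named genes called with all samples, Tlr4, Tirap, Irak1, Irak4, Relb and Il1b lost their call whichever sample was left out.

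Only 2 samples per group and unknown read numbers limit all values, and p-values cover the spread between these samples alone. Tlr1 and Tlr6 share sequence, and Tlr3 and Myd88 overlap genes on the opposite strand. Bulk RNA does not separate the cells that made it.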
